A study of Mus musculus with 25 samples.

Results

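The Hox cluster genes were followed through GFP-sorted cells of the developing mouse retina, as RNA and as open chromatin at their transcript starts. Members were all symbols of the form Hoxa, Hoxb, Hoxc or Hoxd followed by a number. They came to 39 of 28446 genes in the RNA table, the same 39 of 23284 genes in the ATAC exon table, and 43 of 28329 transcript starts. Hoxa10, Hoxb3, Hoxd8 and Hoxd11 each had 2 starts. RNA came from 3 ages, E14 and E18 in the embryo and day 2 after birth (P2), in GFP+ cells, labelled retinal progenitor cells, and in GFP- cells, labelled post-mitotic, with 2 libraries for each sort and age. ATAC-seq, in which a transposase cuts and tags open chromatin, was made from GFP+ cells only, in 13 libraries. A single one came from E10, which the labels date as day 10/11, and pairs came from E12.5, E14, E16.5 and E18 and from the day of birth (P0) and P2. All mice were of the CD1 strain and no other allele or agent is named. The labels give neither the reporter that carries GFP nor whether libraries of a group came from separate animals, so spread between libraries, on which all p-values rest, may be technical. In bulk libraries, fewer cells of a type and less RNA or less open chromatin per cell cannot be told apart.

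Hox genes encode homeodomain transcription factors that give cells of the hindbrain, trunk and limbs their position along the body axis. They lie in 4 clusters, and within a cluster the order of the genes follows the order of their expression from head to tail, with paralogue 1 at the anterior and paralogue 13 at the posterior end. The retina forms from the forebrain, in front of the region where these genes are active, and in cells that do not use them the clusters are a classical target of Polycomb repression. Hoxa held 11 members with 12 starts over 102.558 kb of chromosome 6, Hoxb 10 members with 11 starts over 171.397 kb of chromosome 11, Hoxc 9 members with 9 starts over 113.264 kb of chromosome 15, and Hoxd 9 members with 11 starts over 94.67 kb of chromosome 2. Coordinates of starts and windows are on the mouse build mm9, which the ATAC files use. Paralogues 1 to 4 are called anterior here (13 starts), 5 to 8 central (12 starts) and 9 to 13 posterior (18 starts).

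The promoters of 4 members mark the range of the start data. Hoxa13, a factor of digits and hindgut, had the highest start signal at E10, Hoxd9, a factor of limb and trunk, the highest mean over all libraries, Hoxa5, a factor of the neck and lung, one of the largest rises at P0, and Hoxb8, a factor of the thoracic region, the lowest mean of all 43 starts. They are given as RefSeq has them on GRCm38.p6, a later build than that of the ATAC files, 300 bases around the start, with the dinucleotide CG in capitals.
Hoxa13 (chr6:52260831-52261130, minus strand): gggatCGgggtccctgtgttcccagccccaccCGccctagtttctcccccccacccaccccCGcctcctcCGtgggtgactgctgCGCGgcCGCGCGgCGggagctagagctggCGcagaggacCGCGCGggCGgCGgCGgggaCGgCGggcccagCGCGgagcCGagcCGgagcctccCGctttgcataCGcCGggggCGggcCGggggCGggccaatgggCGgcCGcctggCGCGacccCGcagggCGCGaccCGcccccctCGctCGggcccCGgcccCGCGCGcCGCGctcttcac
Hoxd9 (chr2:74697513-74697812, plus strand): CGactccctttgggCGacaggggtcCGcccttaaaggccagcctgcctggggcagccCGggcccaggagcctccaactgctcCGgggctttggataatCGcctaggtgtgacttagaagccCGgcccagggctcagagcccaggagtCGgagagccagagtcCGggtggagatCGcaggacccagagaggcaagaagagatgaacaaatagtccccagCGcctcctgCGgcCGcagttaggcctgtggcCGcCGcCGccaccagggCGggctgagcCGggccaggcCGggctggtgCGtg
Hoxa5 (chr6:52204538-52204837, minus strand): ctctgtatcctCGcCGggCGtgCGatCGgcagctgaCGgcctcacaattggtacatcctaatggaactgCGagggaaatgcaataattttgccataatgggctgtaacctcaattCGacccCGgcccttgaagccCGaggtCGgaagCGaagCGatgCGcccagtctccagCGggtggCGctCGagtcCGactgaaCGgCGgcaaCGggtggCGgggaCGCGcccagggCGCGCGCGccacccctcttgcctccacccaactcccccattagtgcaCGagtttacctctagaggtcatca
Hoxb8 (chr11:96281655-96281954, plus strand): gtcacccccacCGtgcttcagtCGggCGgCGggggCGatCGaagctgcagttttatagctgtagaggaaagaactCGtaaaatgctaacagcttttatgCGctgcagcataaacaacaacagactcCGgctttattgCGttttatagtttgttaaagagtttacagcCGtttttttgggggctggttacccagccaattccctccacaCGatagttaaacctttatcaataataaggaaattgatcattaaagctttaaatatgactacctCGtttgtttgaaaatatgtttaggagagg
CG occurs 45 times in the 300 bases of Hoxa13, 20 times in Hoxd9, 29 times in Hoxa5 and 13 times in Hoxb8, against a median of 7 over the 32851 promoters searched. At least as many as in Hoxa13 were held by 1.93% of all promoters, and at least as many as in Hoxb8 by 37.9%. Promoter sequences were at hand for 22 of the 39 members, so CG content was not compared over the whole set.

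The ATAC libraries held 11176227 to 94662422 counts in the 10 kb around starts, the fewest in P0 replicate 2 and the second fewest (12682000) at E10. Over all starts, signal in the central 400 bp was 6.40 times that of the outermost windows in the E10 library, 22.7 and 12.2 times in the P2 pair, and 18.5 to 28.6 times in the remaining 10 libraries. Start accessibility below is the count in the central 800 bp, 4 windows of 200 bp, given as CPM, that is, scaled to the library's total over all starts after TMM scaling. The 43 starts held 3 to 1254 counts per library with a median of 96, and their 800 bp did not overlap one another. RNA values are FPKM, and their read depth is unknown.

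RNA of the Hox clusters was all but absent in both sorts at all 3 ages. Of the 468 values (39 members in 12 libraries), 427 were listed at 0 and 41 (8.76%) lay above 0, none above 0.233 FPKM. Of the 39 members, 24 had a value above 0 in at least 1 library and 15 were listed at 0 in all 12, and 14 of the 24 were seen in a single library. None reached the 1 FPKM in 2 libraries that the test required, so 0 members were tested for a difference between sorts or ages. Among the 14276 genes that were, limma called 3.61% between GFP+ and GFP- cells at E18, 1.49% at P2, 1.15% between P2 and E14 GFP+ cells, and 0% between the sorts at E14, where 2246 genes had an unadjusted p below 0.05.

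The members that did show a value were spread over the clusters: 8 of 11 in Hoxa, 6 of 10 in Hoxb, 3 of 9 in Hoxc and 7 of 9 in Hoxd. Hoxa7, a factor of the thoracic region, had the highest single value, 0.233 FPKM in E18 GFP+ replicate 1, and was listed at 0 in the other 11 libraries. Hoxb3, a hindbrain factor, read 0.134 FPKM in E14 GFP- replicate 2 and 0.01998 FPKM in P2 GFP+ replicate 2, and was listed at 0 in the others. Hoxa2, which patterns the hindbrain and the branchial arches, was listed at 0 in both E18 GFP+ libraries, against 0.0765 and 0.0514 FPKM in the E18 GFP- libraries, and at 0 in all 8 libraries of the other ages. Hoxd9, of limb and trunk, was the other member seen in both libraries of a single group and nowhere else, at 0.0168 and 0.00999 FPKM in P2 GFP+ cells. When the filter on low values was dropped, 24 members entered the fit and Hoxa2 was called lower in E18 GFP+ cells (limma, log2(FPKM + 1) difference of -0.09, adjusted p = 0.0396). In that fit 4.24% of the 22882 genes tested were called either way and 3.07% lower, so 1 of 24 members is near the background share.

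Only Hoxd1 and Hoxd8 had values in more than 3 libraries. Hoxd1, of the anterior end of its cluster, read 0.0108 FPKM in P2 GFP+ replicate 2, 0.0269 in P2 GFP- replicate 1, 0.0217 in E14 GFP+ replicate 1, and 0.0182 and 0.0393 in E14 GFP- cells, with 0 in the other 7 libraries. Hoxd8, a factor of the trunk, read between 0.00801 and 0.0228 FPKM in 5 libraries. Hoxa10, a posterior factor of the uterus and hindlimb, read 0.0216 FPKM in P2 GFP+ replicate 2, 0.0272 in P2 GFP- replicate 1 and 0.0613 in E18 GFP+ replicate 2. Hoxd12, a limb factor, read 0.105 FPKM in E18 GFP- replicate 1 alone. These values lie near the lower limit of the table, since the 1st percentile of all values above 0 was 0.00503 to 0.0345 FPKM per library.

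The number of members above 0 differed between the libraries of most groups. It was 3 and 0 in E14 GFP+ cells, 1 and 10 in E18 GFP+ cells and 2 and 9 in P2 GFP+ cells, against 1 and 6 in E14 GFP- cells, 2 and 2 in E18 GFP- cells and 4 and 1 in P2 GFP- cells. E14 GFP- replicate 2, with 6 members and the highest Hoxb3 value, also held RNA of other tissues: the 8 lens markers summed to 4381 FPKM there, against 0.697 to 113 FPKM in the other 11 libraries. Its 10 mesenchyme markers summed to 212 FPKM, against 2.32 to 11.5 FPKM elsewhere, and none of either list was at 0 in all libraries. E14 GFP- replicate 1, with 1 member above 0, held the most erythroid RNA. Its 8 erythroid markers summed to 2491 FPKM, against 276 FPKM in replicate 2 and 0.972 to 192 FPKM in the other libraries. E18 GFP+ replicate 2, with 10 members, had lens and mesenchyme sums of 0.755 and 2.78 FPKM. P2 GFP+ replicate 2, with 9 members, had sums of 3.399 and 4.51 FPKM. The part of these markers in the Hox values was not tested. Of the noncoding RNAs of the clusters in the table, Hotair, Hotairm1, Hottip, Hoxa11os, Hoxaas2, Hoxb5os and Hoxd3os1 were listed at 0 in all 12 libraries. Hoxaas3 read 0.0650 and 0.00690 FPKM in P2 GFP+ cells and Hoxb3os 0.0483 FPKM in E18 GFP+ replicate 2.

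Genes that work with or on the clusters were present. All 9 TALE homeodomain cofactors (Meis, Pbx and Pknox), which bind DNA together with Hox proteins, were tested, and their FPKM summed to 188 to 471 per library. At E18, Meis2, which is active in many parts of the developing brain, fell in GFP+ cells. It read 14.1 and 13.6 FPKM in GFP+ cells, against 161 and 179 FPKM in GFP- cells (log2 difference -3.52 ± 0.28, SE, limma adjusted p = 0.00176). At P2 it was the 1 cofactor called, lower in GFP+ cells at 36.0 and 21.6 FPKM, against 139.6 and 104 FPKM in GFP- cells (-2.07 ± 0.28, limma adjusted p = 0.0147), and this call was lost without P2 GFP+ replicate 2 or either P2 GFP- library (adjusted p = 0.0619 to 0.130). All 16 Polycomb genes (435 to 681 FPKM in sum) and all 8 Trithorax genes and H3K27 demethylases (184 to 303 FPKM in sum) were tested, and 0 of either list passed in any of the 4 RNA comparisons. Of the 7 upstream factors of the trunk and hindbrain, 3 were tested and 0 were called, and Cdx1 and Cdx2, which switch on Hox genes in the trunk, were listed at 0 in all 12 libraries.

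The genes that flank the clusters gave a contrast in RNA. Next to Hoxa, Skap2 read 1.32 to 4.03 FPKM and Hibadh 17.7 to 35.6 FPKM over the 12 libraries. Next to Hoxc, Smug1 read 7.49 to 11.8 FPKM, Calcoco1 4.78 to 38.2 FPKM and Cbx5 61.2 to 141 FPKM, and next to Hoxd, Mtx2 read 28.7 to 67.9 FPKM and Lnp 14.5 to 34.6 FPKM. Around Hoxb, Skap1, Ttll6 and Calcoco2 read at most 0.224, 0.104 and 0.0673 FPKM. The homeobox genes Evx1 and Evx2, which sit at the posterior ends of Hoxa and Hoxd, read at most 0.00680 FPKM and 0. Among the flanking genes chosen, those of Hoxa, Hoxc and Hoxd thus held transcribed genes on both sides and those of Hoxb did not. Genes further out were not looked at.

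Chromatin at the Hox starts was more open than at most silent genes and less open than at most genes. The median Hox start stood at 2.61 ± 0.78 CPM (SD over the medians of 13 libraries), against 7.52 ± 0.60 CPM for all 28329 starts. The 8727 starts of genes under 1 FPKM in all 12 RNA libraries (silent starts) had a median of 0.557 ± 0.503 CPM, and the 12014 starts of genes at 1 FPKM or more in all 12 (expressed starts) one of 25.6 ± 3.5 CPM. Both groups rest on RNA of E14, E18 and P2, since E10, E12.5, E16.5 and P0 have no RNA libraries. By mean CPM, the members lay between the 28.3rd and the 53.4th percentile of all starts, with 39 of 43 below the median. Among silent starts they lay between the 63.2nd and the 94.8th percentile, with 43 of 43 above the median. Starts of olfactory receptor genes (1105 starts), a large family closed in most tissues, had a median of 0.342 CPM. The 29 starts of 25 developmental factors of other tissues, such as Gata4, Myod1 and Pdx1, had a median of 4.55 CPM. Of these 25 genes, 21 stayed under 1 FPKM in all 12 libraries too (not Tbx5, which is also a factor of the dorsal retina, Tbx20, Pax7 and Prrx1), but 51.3% of their FPKM values lay above 0, against 8.76% for Hox members.

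**Figure D1:**
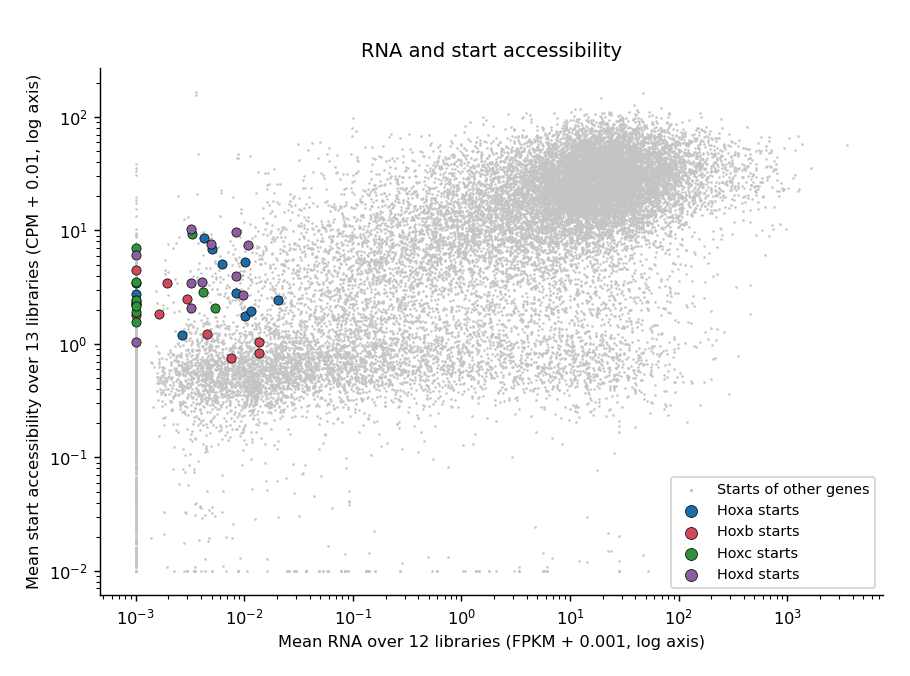
Each point is a transcript start: mean RNA of its gene over 12 libraries on the x axis (FPKM + 0.001, log scale) and mean accessibility of its central 800 bp over 13 libraries on the y axis (CPM + 0.01, log scale). The 43 Hox starts, coloured by cluster, all lie at the left end of the RNA axis, between 0.741 and 10.3 CPM.

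By cluster, the mean over libraries of the median start was 4.36 CPM in Hoxd, 2.91 in Hoxa, 2.46 in Hoxc and 1.74 in Hoxb. Hoxb had the lowest of the 4 medians in each of the 13 libraries. By position the clusters showed no common slope. The means of the medians were 2.31 CPM for anterior, 2.71 for central and 2.79 for posterior starts, and the rank correlation of the mean level with paralogue number was 0.17 over 43 starts, which share libraries and in part neighbours. Within clusters it was -0.16 in Hoxa, 0.27 in Hoxb, 0.10 in Hoxc and -0.07 in Hoxd.

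The genes at the ends of the clusters show how far single starts depart from this. Hoxa13 (chr6, 52210873, minus strand) had 26.97 CPM at E10, 3.64 and 2.66 at E12.5, 4.44 and 5.15 at E14, 4.65 and 5.69 at E16.5, 5.74 and 5.32 at E18, 7.14 and 4.98 at P0 and 5.80 and 7.28 at P2. Its E10 value lay far above those of the other 12 libraries, which read between 2.66 and 7.28 CPM.

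Hoxb1 (chr11, 96227072, plus strand), which marks a single hindbrain segment, had 2.77 CPM at E10, 0.689 and 1.84 at E12.5, 0.740 and 0.952 at E14, 0.525 and 0.825 at E16.5, 1.08 and 0.785 at E18, 0.756 and 1.10 at P0 and 1.15 and 2.50 at P2. Hoxb13 (chr11, 96055675, plus strand), a gene of the tail end and the prostate, had 8.10 CPM at E10, 1.60 and 2.02 at E12.5, 1.93 and 1.77 at E14, 1.60 and 1.39 at E16.5, 1.43 and 1.95 at E18, 1.68 and 1.18 at P0 and 2.45 and 3.87 at P2. Both had their highest value at E10, and in the 10 libraries from E12.5 to P0 neither passed 2.02 CPM.

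Hoxc4 (chr15, 102864826, plus strand), of the neck region, had 4.54 CPM at E10, 1.71 and 1.56 at E12.5, 2.50 and 2.24 at E14, 1.65 and 2.19 at E16.5, 1.91 and 2.17 at E18, 2.31 and 3.04 at P0 and 2.01 and 3.899 at P2. Hoxc13 (chr15, 102751562, plus strand), a factor of hair and nails, had 8.50 CPM at E10, 3.99 and 3.16 at E12.5, 4.44 and 5.32 at E14, 11.9 and 9.92 at E16.5, 10.8 and 13.1 at E18, 14.8 and 15.2 at P0 and 11.1 and 7.83 at P2. In Hoxc13 both E12.5 and both E14 libraries lay at or below 5.32 CPM and all 8 later ones at or above 7.83 CPM. The E10 library, at 8.50 CPM, lay in the range of the later ones. This split was chosen on these values and was not tested.

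Hoxd1 (chr2, 74601037, plus strand) had 5.63 CPM at E10, 6.39 and 4.79 at E12.5, 8.68 and 10.0 at E14, 7.68 and 7.16 at E16.5, 7.63 and 7.46 at E18, 8.36 and 8.53 at P0 and 6.68 and 7.31 at P2. Hoxd13 (chr2, 74506367, plus strand), which shapes the digits, had 19.7 CPM at E10, 3.72 and 3.94 at E12.5, 7.13 and 6.90 at E14, 6.68 and 5.93 at E16.5, 6.50 and 7.54 at E18, 8.48 and 6.76 at P0 and 6.64 and 7.99 at P2. Hoxd13 stood apart at E10 in the same way as Hoxa13, while Hoxd1 at E10 lay within the range of its E12.5 libraries.

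Among the highest means were those of Hoxd9 (10.3 ± 2.9 CPM, SD over 13 libraries), one of the starts of Hoxd8 (9.67 ± 3.49) and Hoxc13 (9.23 ± 4.08). Hoxd9 (chr2, 74535820, plus strand) had 7.11 CPM at E10, 5.37 and 6.17 at E12.5, 9.57 and 9.80 at E14, 10.5 and 9.04 at E16.5, 12.3 and 13.1 at E18, 14.8 and 13.4 at P0 and 12.3 and 10.2 at P2. Hoxd8 at NM_008276 (chr2, 74543546, plus strand) had 19.4 CPM at E10, 5.21 and 4.86 at E12.5, 9.22 and 10.8 at E14, 8.90 and 8.50 at E16.5, 9.87 and 11.3 at E18, 9.57 and 8.36 at P0 and 10.6 and 9.16 at P2. The other start of Hoxd8, 874 bp away, averaged 3.97 CPM, so the closest pair of starts in the set differed more than 2-fold.

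The lowest means belonged to Hoxb8 (0.741 ± 0.417 CPM), one of the starts of Hoxb3 (0.825 ± 0.546) and Hoxd4 (1.02 ± 0.60). Hoxb8 (chr11, 96143219, plus strand) had 0.889 CPM at E10, 0.468 and 0.816 at E12.5, 0.653 and 0.940 at E14, 0.375 and 0.490 at E16.5, 0.669 and 0.994 at E18, 0.252 and 0.591 at P0 and 0.581 and 1.92 at P2. Hoxb3 at NM_001079869 (chr11, 96184440, plus strand) had 2.27 CPM at E10, 0.468 and 0.674 at E12.5, 0.682 and 1.03 at E14, 0.675 and 0.721 at E16.5, 0.693 and 0.639 at E18, 0.462 and 0.253 at P0 and 0.526 and 1.62 at P2. Hoxd4 (chr2, 74560035, plus strand), of the neck and hindbrain, had 2.27 CPM at E10, 0.331 and 0.674 at E12.5, 1.06 and 1.06 at E14, 1.03 and 1.08 at E16.5, 0.980 and 0.858 at E18, 0.630 and 0.338 at P0 and 0.761 and 2.21 at P2. In all 3 the E10 or the P2 replicate 2 library gave the highest value, the libraries in which starts stood least above their flanks.

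**Figure D2:**
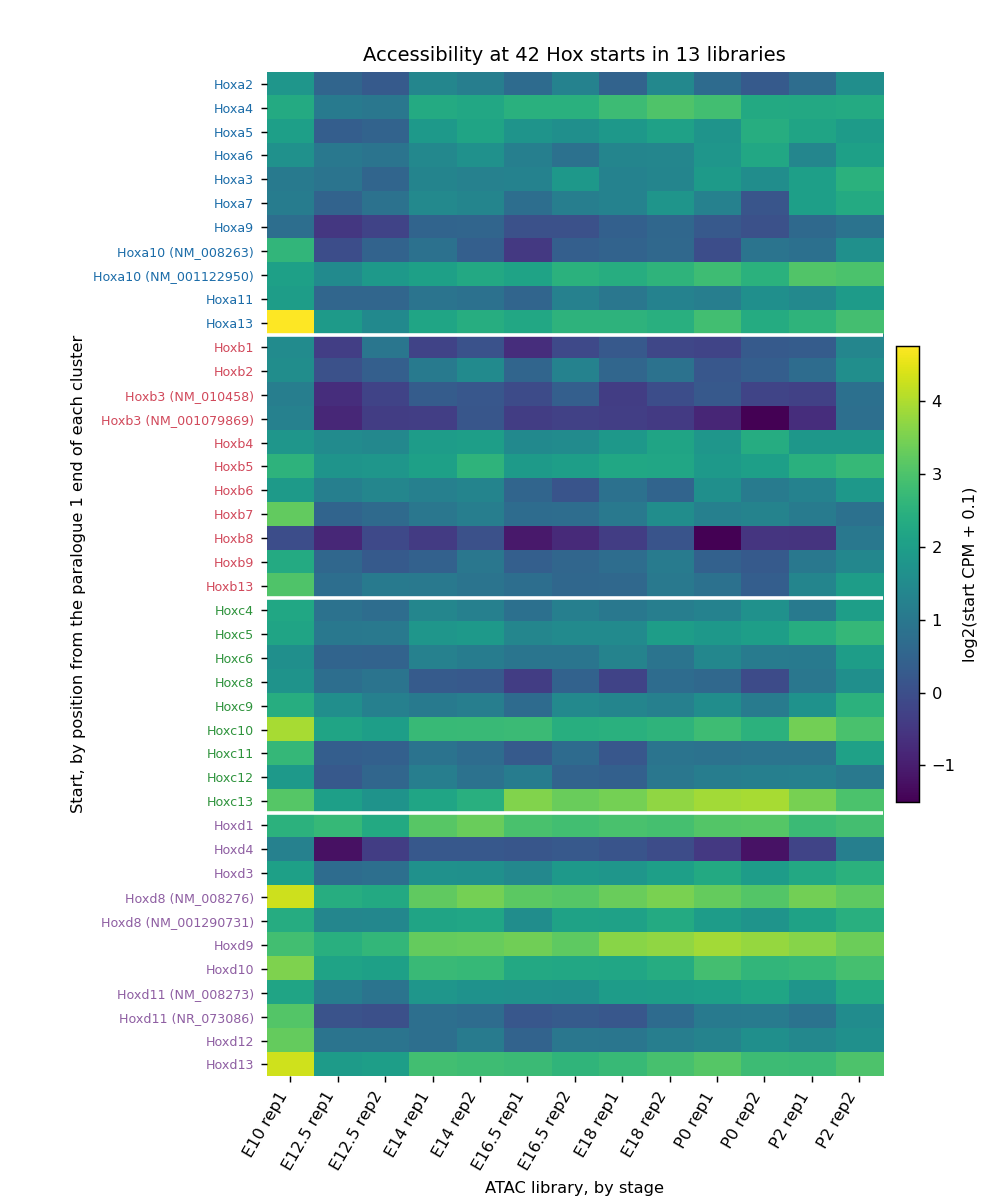
Colour gives log2(start CPM + 0.1) for 42 of the 43 Hox starts (rows, by position from the paralogue 1 end of each cluster, clusters parted by white lines) in each of the 13 ATAC libraries (columns, by stage). Hoxc13, Hoxd1, Hoxd8 and Hoxd9 are bright in most libraries, Hoxa13, Hoxd8 and Hoxd13 brightest at E10, and Hoxb rows mostly dark.

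The Hox signal was highest near the starts but broad. The central 800 bp, which would hold 8% of evenly spread counts, held 16.8% of the counts within 10 kb at Hox starts (12.7% to 19.0% over libraries), against 22.5% at silent, 50.4% at expressed and 9.09% at olfactory receptor starts. The share was 21.7% in Hoxd, 18.9% in Hoxc, 14.9% in Hoxa and 11.2% in Hoxb. Over the full 10 kb the median Hox start had 21.5 CPM, against 26.3 CPM for all and 6.12 CPM for silent starts. The distance to the average gene was thus small over 10 kb and large at the start itself. In 22 pairs of neighbouring member starts these 10 kb regions overlap, so such pairs share counts.

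In 28 of the 43 regions the 200 bp window with the highest mean lay outside the central 800 bp. These means and the ratios below leave out the E10 library, and the windows were chosen on these values and are given without a test. The strongest lay 3300 bp before Hoxa7 (chr6:52171772-52171971, mm9), between the outermost exons of Hoxa7 and Hoxa9, with 7.14 and 7.85 CPM at P0, against 2.84 and 2.48 CPM at E12.5, and with a mean 7.85 times the mean window of the Hoxa7 start. Another lay 3900 bp beyond the annotated start of Hoxd3 (chr2:74553850-74554049), with 5.50 and 5.15 CPM at P0, against 2.53 and 2.09 CPM at E12.5. The windows found for Hoxa6 (chr6:52161623-52161822) and Hoxa3 (chr6:52161666-52161865) overlap and are one site, with 5.88 and 4.90 CPM at P0 and 2.45 and 2.23 CPM at E12.5 by the Hoxa6 window. Those of Hoxd12 (chr2:74511070-74511269) and Hoxd13 (chr2:74511167-74511366) overlap too. Beside the low start of Hoxb8, a window 2900 bp before it (chr11:96140219-96140418) stood at 13.03 times the mean 200 bp window of the start, with 2.73 and 2.87 CPM at P0 and 1.63 and 1.56 CPM at E12.5. Hoxc8 had one 2900 bp before its start (chr15:102817970-102818169), at 9.99 times the mean window of that start. None of these windows was assigned to a gene.

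**Figure D3:**
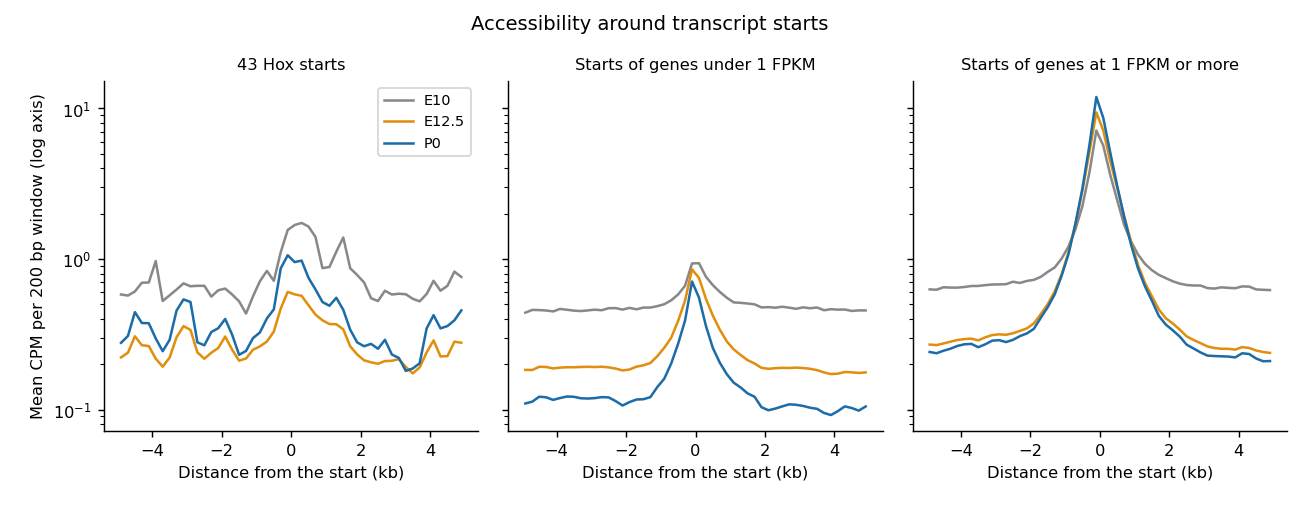
Mean CPM per 200 bp window (log scale, scaled as the starts) against distance from the start in kb, upstream to the left, for the 43 Hox starts, silent starts and expressed starts, with a line each for E10, E12.5 and P0. The Hox lines are low and broad beside the sharp peak of expressed starts, highest at E10 and higher at P0 than at E12.5 over most of the region, while the silent line is highest at E10 and lower at P0 than at E12.5.

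Between E12.5 and P0, accessibility rose at 19 of the 43 Hox starts and fell at none (edgeR quasi-likelihood test, adjusted over 27506 starts). Among all starts tested, 43.7% were called, 22.7% higher and 21% lower at P0, so the members' share of 44.2% is near the background, and all 19 calls were in 1 direction. The median log2 fold change of the members was 0.62, against -0.12 over all starts tested (0.57 and -0.17 with DESeq2 size factors), and 36 of 43 were above 0. The median Hox start read 2.86 and 2.96 CPM at P0, against 1.71 and 1.77 CPM at E12.5. The median silent start read 0.252 and 0.253 CPM at P0, against 0.661 and 0.816 CPM at E12.5, and the median expressed start 29.3 and 28.1 CPM, against 22.5 and 21.5 CPM. The P0 and E12.5 values did not overlap in any of these medians. The contrast of starts over flanks moved with this comparison: it was 27.8 and 28.6 times in the P0 libraries, the highest of all 13, against 19.9 and 18.5 times in the E12.5 libraries, the lowest of the 5 stages from E12.5 to P0. Its part in the Hox result was not tested.

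By cluster, Hoxd and Hoxa held most of the rises. In Hoxd 8 of 11 starts rose (median log2 fold change 0.84), in Hoxa 7 of 12 (0.91), in Hoxc 3 of 9 (0.68) and in Hoxb 1 of 11 (0.05). Whether the clusters differ was not tested, since neighbours are not replicates. By position, 5 of 13 anterior, 4 of 12 central and 10 of 18 posterior starts rose.

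In Hoxa, Hoxa4, of the neck region, had 7.22 and 4.81 CPM at P0, against 2.01 and 1.88 CPM at E12.5, a log2 fold change of 1.66 ± 0.23 (SE, adjusted p = 1.12e-11). Hoxa5 had 3.23 and 5.15 CPM at P0, against 1.18 and 1.31 CPM at E12.5, at 1.71 ± 0.29 (SE, adjusted p = 6.72e-08). Hoxa6 had 3.36 and 4.64 CPM at P0, against 1.90 and 1.77 CPM at E12.5, at 1.09 ± 0.31 (SE, adjusted p = 0.00198). In all 3 neighbours both P0 libraries lay above both E12.5 libraries. The calls rest on these same values, so this is not separate evidence. The annotated start of Hoxa3, a gene of thymus and parathyroid, lies between Hoxa6 and Hoxa7 and had 3.65 and 2.87 CPM at P0, against 1.76 and 1.35 CPM at E12.5 (1.08 ± 0.31). Hoxa10 at NM_001122950 had 6.93 and 5.57 CPM at P0, against 2.73 and 3.62 CPM at E12.5 (1.01 ± 0.21). Hoxa11, of the forearm and kidney, had 2.14 and 2.96 CPM at P0, against 1.38 and 1.38 CPM at E12.5 (0.86 ± 0.36). Hoxa13 was called as well, at 0.97 ± 0.20. Among those not called were the starts of Hoxa2, Hoxa7 and Hoxa9 and the other start of Hoxa10.

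In Hoxc, Hoxc13 had the largest fold change of all members, with 14.8 and 15.2 CPM at P0, against 3.99 and 3.16 CPM at E12.5, at 2.06 ± 0.18 (SE, adjusted p = 3.03e-29). Hoxc10, of lumbar segments, had 6.93 and 5.66 CPM at P0, against 4.33 and 3.94 CPM at E12.5, at 0.63 ± 0.19 (SE, adjusted p = 0.00506). Hoxc5 had 3.49 and 3.88 CPM at P0, against 1.90 and 1.95 CPM at E12.5, at 0.92 ± 0.27 (SE, adjusted p = 0.00315). Hoxc13, at the posterior end, stood about 4-fold higher at P0, and the other two less than 2-fold. In Hoxb the one call was Hoxb4, which acts in blood stem cells, with 3.36 and 5.07 CPM at P0, against 2.78 and 2.55 CPM at E12.5, at 0.62 ± 0.27 (SE, adjusted p = 0.0471). The lowest fold change of any member was that of Hoxb8, -0.70 ± 0.72 (SE, adjusted p = 0.424), on few counts.

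In Hoxd, the annotated start of Hoxd3, of the first neck vertebrae, had 4.79 and 3.80 CPM at P0, against 1.54 and 1.63 CPM at E12.5, at 1.46 ± 0.27 (SE, adjusted p = 1.55e-06). Hoxd9 had 14.8 and 13.4 CPM at P0, against 5.37 and 6.17 CPM at E12.5, at 1.301 ± 0.16 (SE, adjusted p = 1.44e-13). Hoxd13 had 8.48 and 6.76 CPM at P0, against 3.72 and 3.94 CPM at E12.5, at 1.02 ± 0.19 (SE, adjusted p = 1.28e-06). Each of these had both P0 libraries above both E12.5 libraries, the values on which their calls rest. Hoxd11, of the forearm and kidney, rose at NM_008273 (3.99 and 4.39 CPM at P0, against 2.12 and 1.77 CPM at E12.5, 1.09 ± 0.27) and at NR_073086 (1.97 and 2.03 CPM at P0, against 0.964 and 0.922 CPM at E12.5, 1.08 ± 0.42). Hoxd8 at NM_008276 had 9.57 and 8.36 CPM at P0, against 5.21 and 4.86 CPM at E12.5 (0.84 ± 0.18). The smaller rises were those of Hoxd10, a lumbar factor, with 7.26 and 6.08 CPM at P0, against 4.27 and 4.08 CPM at E12.5 (0.69 ± 0.20), and of Hoxd1, with 8.36 and 8.53 CPM at P0, against 6.39 and 4.79 CPM at E12.5 (0.58 ± 0.18).

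When each of the 4 libraries was left out in turn, 13 to 16 members were called, and 10 of the 19 starts kept their call each time: Hoxa4, Hoxa5, Hoxa10 at NM_001122950, Hoxc5, Hoxc13, Hoxd3, Hoxd8 at NM_008276, Hoxd9, Hoxd11 at NM_008273 and Hoxd13. Without P0 replicate 1 the calls of Hoxa3, Hoxa13, Hoxc10, Hoxd10 and Hoxd11 at NR_073086 were lost, and without P0 replicate 2 those of Hoxa6, Hoxa11, Hoxb4 and Hoxd11 at NR_073086. Without E12.5 replicate 2 those of Hoxa3, Hoxa11, Hoxb4, Hoxc10, Hoxd1 and Hoxd11 at NR_073086 were lost, and without E12.5 replicate 1 those of Hoxa11, Hoxb4 and Hoxd11 at NR_073086. Leaving out the E10 and P2 libraries, an alternative chosen after seeing the data, gave 24 members, all higher, and a start of 2 kb in place of 800 bp gave 24, of which 23 were higher and 1 lower. The central 400 bp gave 13, with the calls of Hoxa10 at NM_001122950, Hoxa11, Hoxb4, Hoxc5, Hoxc10 and Hoxd11 at NR_073086 lost, and Hoxc5 was lost over the full 10 kb too. Under every alternative run, 8 of the 19 kept their call: the 10 above without Hoxa10 and Hoxc5.

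**Figure D4:**
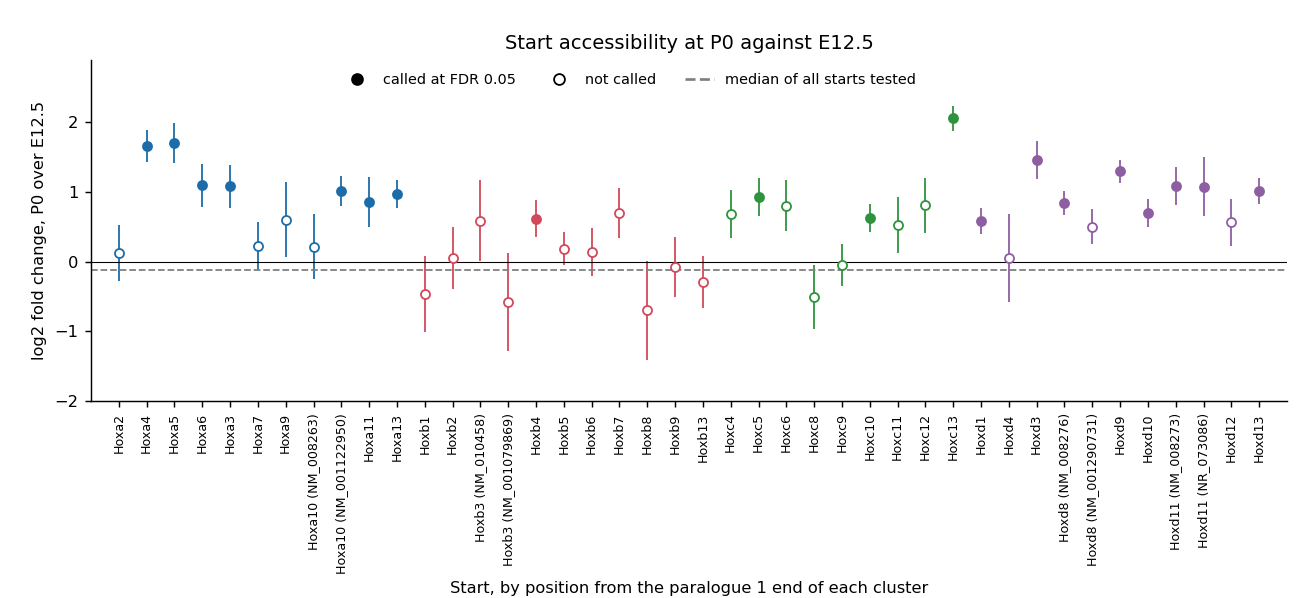
Points give the log2 fold change of start accessibility, P0 over E12.5, for 42 of the 43 Hox starts by position from the paralogue 1 end of each cluster, with bars of 1 SE on the edgeR estimate (2 libraries per stage). Filled points passed the test (false discovery rate 0.05), open points did not, and the dashed line is the median of all starts tested (-0.12). The filled points all lie above 0, with 15 of 19 in Hoxa and Hoxd.

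Starts of other lists moved between the same stages. Of eye field markers 8 of 12 starts rose and 0 fell, and their summed level was 308 and 315 CPM at P0, against 204 and 179.9 CPM at E12.5. Of progenitor markers 7 of 11 rose and 0 fell (311 and 308 CPM, against 221 and 201 CPM). Markers of tissues outside the retina fell or were mixed: lens, 0 higher and 8 lower of 9 starts (16.1 and 15.5 CPM, against 41.9 and 43.7 CPM), erythroid, 0 and 4 of 7 (3.19 and 3.12 CPM, against 8.02 and 8.05 CPM), microglia and myeloid, 0 and 4 of 7 (1.34 and 1.52 CPM, against 5.32 and 4.26 CPM), and mesenchyme, 4 and 6 of 14 (138 and 147 CPM, against 127 and 119 CPM). Hba-a1, Hba-a2, Hbb-bs and Hbb-y had 0 counts in both P0 libraries. Of pigment epithelium and surface epithelium starts 2 each fell and 0 rose, of endothelial starts 1 rose and 1 fell, and of muscle starts 0 were called. Their part in the Hox result was not tested. Of olfactory receptor starts 1 rose and 408 fell of 1098 tested, and of the developmental factors of other tissues 10 rose and 4 fell of 29. Polycomb starts rose in 13 of 22 cases, Trithorax and demethylase starts in 9 of 12 with 1 lower, and TALE cofactor starts in 4 of 11.

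Between E14 and P2, 11 of the 43 starts were called, 10 higher and 1 lower at P2 (edgeR), against 22.7% of all starts tested called either way, 9.49% higher and 13.2% lower. By cluster, 5 of 9 rose in Hoxc, 4 of 12 in Hoxa, 1 of 11 in Hoxd and 0 of 11 in Hoxb. Hoxc13 had 11.1 and 7.83 CPM at P2, against 4.44 and 5.32 CPM at E14, at 0.97 ± 0.15 (SE, adjusted p = 1.01e-08). Hoxa10 at NM_001122950 had 8.22 and 7.80 CPM at P2, against 4.08 and 4.75 CPM at E14, at 0.86 ± 0.18 (SE, adjusted p = 4.20e-05). Hoxa3 had 3.97 and 5.52 CPM at P2, against 2.40 and 2.28 CPM at E14, at 1.01 ± 0.27 (SE, adjusted p = 0.00167). Both P2 libraries lay above both E14 libraries in these starts, which were called on the same values. Further rises were those of Hoxc8, Hoxc9, Hoxc10, Hoxc5, Hoxa7, Hoxa11 and Hoxd3, between 0.51 and 1.12 on the log2 scale. In Hoxc9, of the lower thorax, the P2 values lay apart: it had 3.10 and 5.65 CPM at P2, against 1.99 and 2.15 CPM at E14. Hoxc10 had 10.7 and 7.67 CPM at P2, against 6.46 and 6.58 CPM at E14, the higher value this time in replicate 1. Hoxd1 was the one member that fell, with 6.68 and 7.31 CPM at P2, against 8.68 and 10.0 CPM at E14, at -0.42 ± 0.16 (SE, adjusted p = 0.0369), a call that was lost with DESeq2, with DESeq2 size factors and with starts of any other width.

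These calls rest on few libraries. In P2 replicate 2 starts stood 12.2 times above their flanks, against 22.7 times in replicate 1, and its median silent start was at 0.877 CPM, against 0.332 CPM. The count of members called was 3 without E14 replicate 1, 3 without E14 replicate 2, 21 without P2 replicate 1 and 8 without P2 replicate 2, and Hoxc13 and Hoxa10 at NM_001122950 alone kept their call in all 4. Starts of markers of other cell types rose in this comparison too: 4 of 9 lens starts with 1 lower (summed level 20.8 and 27.6 CPM at P2, against 18.99 and 19.8 CPM at E14), 4 of 8 endothelial (69.3 and 70.1 CPM, against 50.8 and 53.0 CPM) and 3 of 6 muscle starts (15.8 and 21.2 CPM, against 11.2 and 11.4 CPM). Their median log2 fold changes were 1.15, 1.18 and 0.84, against 0.31 for the Hox starts and 0.04 for all starts tested. The endothelial list does not stand for foreign tissue alone. At P2 its Kdr read 226 and 233 FPKM in GFP+ cells, against 98.8 and 98.6 FPKM in GFP- cells. Egfl7 read 13.1 and 14.2 FPKM, against 5.63 and 6.31 FPKM. Cldn5 read 4.41 and 10.5 FPKM, against 9.53 and 3.58 FPKM, and Pecam1, Cdh5 and Tek at most 0.327 FPKM. Of microglia and myeloid starts 2 of 7 rose, of surface epithelium 2 of 9 and of erythroid 1 of 7, with 0 lower in each, of mesenchyme 2 of 14 with 1 lower and of pigment epithelium 1 of 6 with 1 lower. Of 1098 olfactory receptor starts 31 rose and 2 fell, with a median of 0.82. Eye field markers had 2 of 12 higher and 3 lower, and progenitor markers 1 of 11 higher and 2 lower. The part of these markers and of the libraries' difference in the Hox result was not tested.

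Along the 7 stages, taken as ranks 1 to 7, 4 of 43 starts rose and 0 fell (edgeR), against 12.6% of all starts tested called either way, 6.07% higher and 6.55% lower. They were Hoxc13 at 0.25 ± 0.07 (SE, adjusted p = 0.0191) per stage, Hoxa3 at 0.23 ± 0.06 (SE, adjusted p = 0.0181), Hoxa10 at NM_001122950 at 0.21 ± 0.05 (SE, adjusted p = 0.00389) and Hoxd9 at 0.18 ± 0.04 (SE, adjusted p = 0.0072). The members' median was 0.01 per stage, and -0.01 with DESeq2 size factors. Without the E10 library 10 members rose and 0 fell, without E12.5 replicate 2 the count was 2, with Hoxa3 and Hoxc13 lost, and without P2 replicate 2 it was 7. Hoxc13 also lost its call without E12.5 replicate 1, and both Hoxc13 and Hoxa10 at NM_001122950 with the central 400 bp, so Hoxd9 alone kept its call under every alternative run.

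Counts over the exons of a gene, which reach beyond its start but overlap it in part, showed the same direction for more members. Between E12.5 and P0, 23 of 39 rose and 0 fell (edgeR), against 42% of all 22097 genes tested called either way, 23% higher and 19% lower. By cluster, 10 of 11 rose in Hoxa, 8 of 9 in Hoxd, 3 of 9 in Hoxc and 2 of 10 in Hoxb. Hoxd9 had 34.96 and 34.2 CPM per kb at P0, against 12.7 and 11.5 CPM per kb at E12.5, at 1.51 ± 0.17 (SE, adjusted p = 6.31e-07). Hoxa5 had 15.6 and 18.8 CPM per kb at P0, against 6.63 and 5.05 CPM per kb at E12.5, at 1.52 ± 0.23 (SE, adjusted p = 3.83e-05). Hoxa7, whose start was not called, had 21.1 and 18.8 CPM per kb at P0, against 6.99 and 7.92 CPM per kb at E12.5 over its exons, at 1.44 ± 0.20 (SE, adjusted p = 1.30e-05). Hoxb8, with the lowest start of all, had 16.1 and 15.8 CPM per kb at P0, against 7.10 and 8.20 CPM per kb at E12.5, at 1.07 ± 0.20 (SE, adjusted p = 3.31e-04). Exons and starts of a gene share part of their counts, so they are not separate evidence. Without P0 replicate 1 the count was 11, and 11 genes, among them these 4, kept their call in each of the 4 leave-one-out fits. Per kb of exon the median member had 11.4 CPM over all libraries, against 10.7 CPM for all genes. Along the stages 6 of 39 rose over exons (Hoxa5, Hoxa7, Hoxa10, Hoxb8, Hoxc13 and Hoxd9) and 0 fell, against 5.61% of all genes called either way, 2.8% higher and 2.81% lower, and each of the 6 lost its call when some single library was left out (0 members without P2 replicate 1, E12.5 replicate 1, E12.5 replicate 2 or P0 replicate 1, and 1 without P0 replicate 2).

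The E10 library stood apart at the Hox starts, with a median of 4.35 CPM, against 1.71 and 1.77 CPM at E12.5. It has no replicate, so its values are given without a test, with exact Poisson 95% intervals that cover counting error only. The start was higher than the E12.5 mean in 42 of 43 cases, with a median log2 ratio of 1.35 (1.70 for posterior, 0.96 for central and 1.35 for anterior starts). E10 was likewise higher at 50.6% of all starts, 75.98% of silent starts and 86.2% of olfactory receptor starts. Hoxa13 stood at 26.97 CPM (95% interval 23.9 to 30.4), against 3.64 and 2.66 CPM at E12.5, and Hoxd13 at 19.7 CPM (17.0 to 22.6), against 3.72 and 3.94 CPM. The Hoxd11 start NR_073086 stood at 8.30 CPM (6.62 to 10.3), against 0.964 and 0.922 CPM, the largest ratio of all. Hoxb7 stood at 9.48 CPM (7.68 to 11.6), against 1.32 and 1.49 CPM. Over its exons, Hoxa13 stood at 82.1 CPM per kb at E10, against 12.8 and 10.7 CPM per kb at E12.5. Of the 4 largest ratios 3 belonged to posterior starts, of Hoxd11, Hoxa13 and Hoxa10 at NM_008263. Among the smallest log2 ratios were those of Hoxd1 (0.01), Hoxb4 (0.33) and Hoxa3 (0.34). So were those of the posterior starts Hoxd9 (0.30) and Hoxa10 at NM_001122950 (0.35). The rank correlation of the ratio with paralogue number was 0.43 over 43 starts (0.59 in Hoxd, 0.53 in Hoxa, 0.40 in Hoxc and 0.21 in Hoxb), points that share the same 3 libraries.

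The same library had the lowest contrast between starts and flanks, 6.40-fold, and silent and olfactory receptor starts read higher in it. The median silent start was at 2.07 CPM, against 0.661 and 0.816 CPM at E12.5. The median olfactory receptor start was at 1.19 CPM, against 0.468 and 0.639 CPM. Silent starts are so named by RNA of E14, E18 and P2, so genes active at E10 or E12.5 can be among them. The ratio of medians, E10 over E12.5, was 2.50 for Hox starts, 2.81 for silent, 2.14 for olfactory receptor and 0.883 for all starts. It was 3.47 for posterior, 2.16 for central and 2.101 for anterior Hox starts. The median log2 ratio was also taken start by start, with 0.1 added to each CPM. It was 1.301 for Hox, 0.98 for silent, 0.973 for olfactory receptor and 0.02 for all starts. The same log2 ratio was 1.66 for microglia and myeloid, 1.33 for surface epithelium and 1.10 for muscle starts. It was 0.29 for developmental factors of other tissues and -0.27 (mesenchyme) to 0.49 (eye field) for the other marker lists. A general rise of silent starts and a rise of the Hox starts cannot be told apart in 1 library. The part of contrast and of other cell types was not tested.

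**Figure D5:**
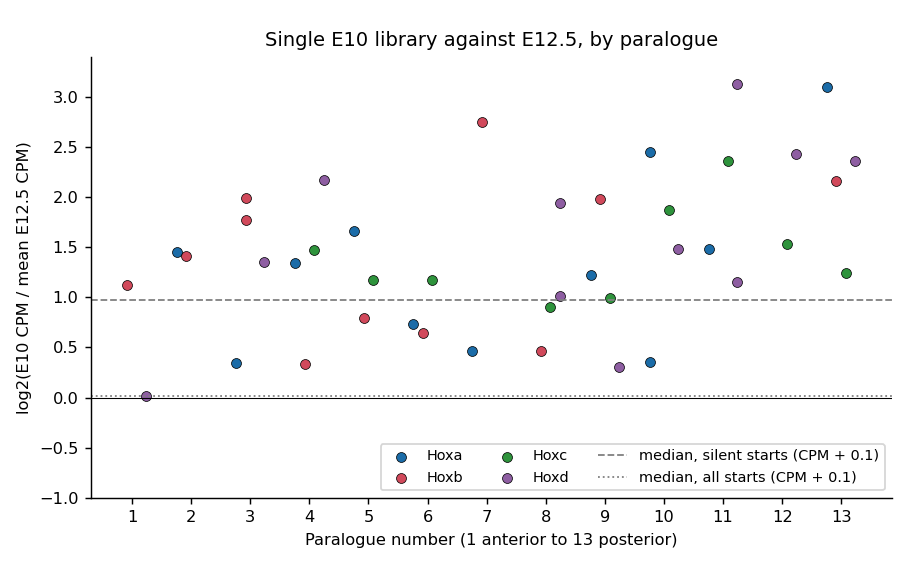
Each point is a Hox start, 42 of the 43, with its paralogue number on the x axis and the log2 ratio of its CPM in the single E10 library over the mean of 2 E12.5 libraries on the y axis, coloured by cluster. The dashed and dotted lines are the medians of the same ratio, with 0.1 added to each CPM, over silent starts (0.98) and all starts (0.02). The points above 3 belong to Hoxa13 and Hoxd11.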

How the data were processed

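RNA-seq (12 libraries) and ATAC-seq (13 libraries) values were used as the authors deposited them. The deposited RNA values are in FPKM, a unit inferred from the values because the sources used here do not name it. The deposited ATAC values are raw counts in 200 bp windows, 50 per RefSeq transcript start, and raw counts over the exons of each gene. The submitters' processing notes give, with no roles, 2 builds (mm9, mm10), the aligners HISAT2 and Bowtie2, featureCounts 1.5.3 and SAMtools 1.5, as well as bedtools 2.26.0 with Picard 2.10.7. The labels call the RNA polyA but name a kit for total RNA.

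Genes at 1 FPKM or more in 2 libraries were tested on log2(FPKM + 1) with limma 3.58.1 (trend, 6 groups). Counts over the central 800 bp of starts, and over exons, were tested with edgeR 4.0.16 (TMM, quasi-likelihood, all 13 libraries). Benjamini-Hochberg adjustment ran over all features at a false discovery rate of 0.05. Library sizes were the window totals (11176227 to 94662422) or exon totals (1474790 to 15915391). RefSeq promoters of chromosome 18 were not searched. Simulated data were used first to check the start tests of P0 against E12.5 and of the stage trend, and the RNA test at E18. The other comparisons were not simulated. The members, gene lists and tests were chosen with earlier results of these data known. Per-library values are given for members called in a comparison, the 6 highest in RNA, the 4 highest and 3 lowest starts, and the first and last gene of each cluster, except that 1 Hox start and 1 cofactor are not reported here by name and that start is left out of 3 figures. Alternatives were other scalings, filters, pseudocounts and start widths, DESeq2 1.42.0, a replicate block and leaving out libraries. Scripts ran in R 4.3.3 and Python 3.11.15.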

Additional observations from a re-analysis of the deposited data

How the results depend on the processing

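No called member changed direction under any alternative run. At starts between E12.5 and P0, 19 members were called, and 30 with the full 10 kb as the start. Leaving out single libraries gave 13 to 16 members, and 7161 to 9286 starts in all. Between E14 and P2, 11 members became 25 with 10 kb, and 3 to 21 without single libraries (2733 to 15487 starts in all). Along the stages, 4 members became 10 without the E10 library, 13 without the E10 and P2 libraries (10843 starts in all), 7 with 2 kb and 10 with 10 kb, and 2 to 7 without single libraries (1959 to 13418 in all). Over exons between E12.5 and P0, single libraries left out gave 11 to 20 members (3285 to 7285 genes in all). The exon trend called 1952 genes without the E10 library, 8040 without the E10 and P2 libraries, 2485 with DESeq2, and 289 to 9361 (0 to 10 members) without single libraries. The median Hox start was at 34.96% of the median start, and at 80.7% over 10 kb. The cause of these moves was not tested. Leaving out the E10 and P2 libraries together was chosen after seeing the data.

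In RNA, 0 members were called in each comparison, except 1 at E18 without the filter. Over all genes the E14 count was 9 without the filter. The E18 count of 516 (161 higher) was 143 with log2(FPKM + 0.1), 970 without the filter, 944 with quantile scaling (480 higher) and 7950 in a fit of the E18 libraries alone. Fits of the contrast alone gave 3229 at P2 and 0 between P2 and E14. Leaving out single libraries gave 0 to 6844 genes at E14, 9 to 28 at E18, 29 to 114 at P2, 15 to 470 between P2 and E14, and 0 members each time. At these FPKM values and start counts of 3 to 1254, small differences between members were not detectable.

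Whether replicate numbers pair the libraries was not settled. Deviations of same-numbered libraries correlated with either sign, at -0.558 to 0.362 over 15 RNA pairs and -0.173 to 0.246 over 15 ATAC pairs. With the replicate number as a block, the starts called were 19, 12 and 4 members and the exons 23 and 3 members (797 genes for the exon trend). In RNA the block gave 269 genes at E18, 129 at P2 and 92 between P2 and E14.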
